A study of Mus musculus with 6 samples.

Results

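The mitochondrial matrix chaperones and proteases were followed in mouse primary cortical neurons depleted of Opa1, as 9 genes taken by name out of the 55471 gene identifiers in the count table. The 9 are Hspa9, Dnaja3, Hspd1, Hspe1, Trap1, Lonp1, Clpp, Clpx and Htra2, and all 9 passed the filter on low counts that left 16562 genes for testing. Gene expression was measured by RNA sequencing of polyadenylated RNA. The neurons came from cortices of CD1 mouse embryos at stage E14.5 to E15 and were treated with 2 uM Ara-C, an inhibitor of cell division. Lentivirus was added on day 6 and RNA was extracted on day 11. The 3 shControl libraries (genotype WT) came from cultures given a control short hairpin RNA, and the 3 shOpa1 libraries (genotype Opa1 knock-down) from cultures given a hairpin against Opa1. Both groups therefore share the virus, the Ara-C and the time in culture. The labels name a single hairpin per group and give neither its sequence nor the promoter that drives it. They call the libraries biological replicates without saying which cultures or litters they came from, so each p-value rests on the spread between the libraries alone.

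Most mitochondrial proteins are made in the cytosol, threaded through the membranes unfolded, and folded in the matrix. The Hsp70 protein of the matrix, encoded by Hspa9, pulls them in and holds them, J-domain proteins such as Dnaja3 start its ATP cycle, and the barrel of Hspd1 closed by its lid Hspe1 folds many of them. Lonp1 and the complex of Clpx with Clpp degrade matrix proteins that are damaged or unassembled. Trap1 is the Hsp90 protein of mitochondria. Htra2 is a serine protease of the intermembrane space rather than of the matrix, and is kept here because the gene set names it. Several of these genes are known targets of the mitochondrial unfolded protein response, in which the transcription factors Atf5, Ddit3 (CHOP) and Atf4 take part.

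With Opa1 depleted, 6 of the 9 genes rose, 1 fell and 2 did not pass the test (edgeR's quasi-likelihood test at a false discovery rate of 0.05, with Benjamini-Hochberg adjustment over all tested genes). This test has the group as its only term and takes no account of the replicate number. Hspa9 rose most, by 1.01 on the log2 scale. Hspe1, Clpp, Lonp1 and Hspd1 rose by between 0.57 and 0.70, and Clpx by 0.27. Dnaja3, the J-domain partner of Hspa9, fell by 0.74. Trap1 and Htra2 were each 0.28 above shControl, with adjusted p-values of 0.0608 and 0.0706. The same test called 38.9% of all tested genes in either direction, 18.9% higher and 20.0% lower. The median log2 fold change was 0.57 over the 9 genes and -0.01 over all tested genes. The 9 genes were chosen with earlier results of these data known, so these shares are background and no test of the set. With the replicate number as a block, Trap1 and Htra2 were also called and the 9 genes stood at 8 higher and 1 lower, where the block called 59.5% of all tested genes, 28.8% higher and 30.7% lower. In 7 of the 9 genes every shOpa1 library lay above every shControl library, an arrangement found in 25.8% of all tested genes, and in 1 gene every shOpa1 library lay below, found in 26.0%.

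**Figure D1:**
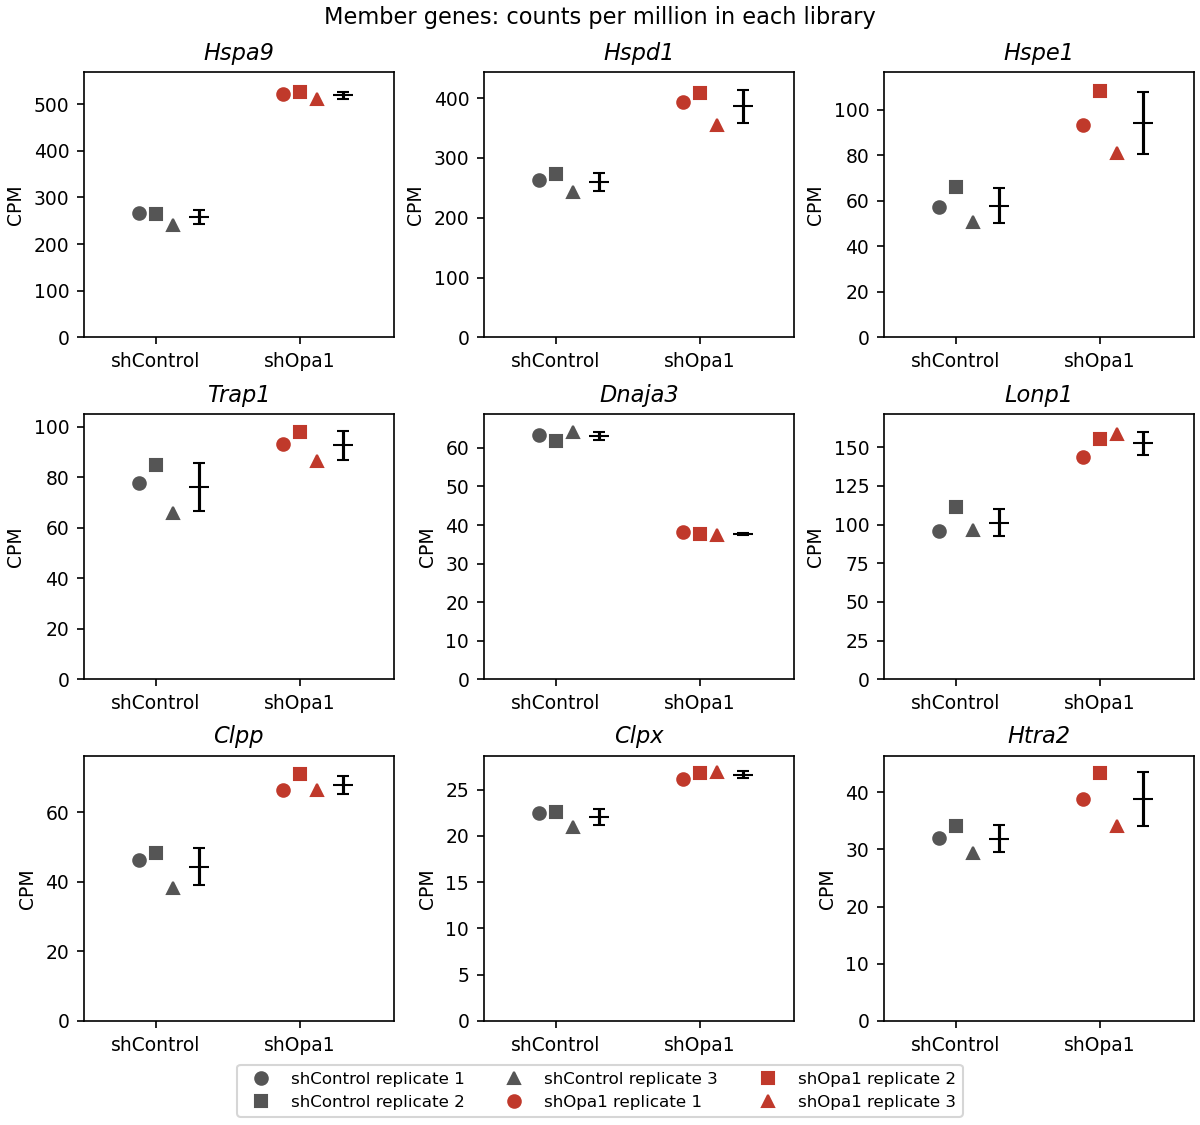
CPM (counts scaled to a common library size by TMM, linear axis from 0) of each gene in each of the 6 libraries, with shControl in grey, shOpa1 in red, a marker shape per replicate number and the group mean ± SD. Hspa9 stands at 241 to 267 CPM in shControl and 511 to 525 in shOpa1, Dnaja3 at 61.9 to 64.1 in shControl and 37.4 to 38.1 in shOpa1, and the groups of Htra2 overlap.

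The libraries held between 24676709 and 32961580 counts, so the 9 genes rest on 22056 to 50467 counts per library. As the check of the label, Opa1, the inner-membrane fusion GTPase, stood at 201.9, 204.6 and 201.9 CPM in shControl and at 10.2, 8.64 and 8.50 CPM in shOpa1, a log2 fold change of -4.48 ± 0.0876 (SE). CPM is a count divided by its library's TMM-scaled total. Both libraries numbered 3 stood apart on the second principal component, at 29.4 and 30.4 against -16.4 to -13.8 for the other 4, so each gene is also given by pair of equal number. The summed level of 6 neuronal markers was 7763 to 8227 CPM in shControl and 5167 to 5537 in shOpa1, with 5 of 6 called lower, so markers of the labelled cell type were present in every library. The sum of 7 astrocyte markers was 235 to 384 and 110 to 152 CPM, with 3 called lower and 1 higher, or 6 lower and 1 higher with the replicate block. Most of this sum was Slc1a2 alone, at a mean of 247 CPM in shControl and 103 in shOpa1. Microglial markers summed to 5.49 to 7.92 and 3.27 to 4.71 CPM, with the only tested marker of 6 lower. Oligodendrocyte lineage markers stood at 32.4 to 60.3 and 31.2 to 46.7 CPM with 1 of 6 lower (2 with the block), mural and fibroblast markers at 6.39 to 8.34 and 3.56 to 18.0, endothelial markers at 0.880 to 1.35 and 0.703 to 1.08, and cycling-cell markers at 0.486 to 6.64 and 0.701 to 1.16, with none called in these last 3 lists. No marker was at 0 in all libraries. In these bulk libraries fewer cells of a type and less RNA per cell cannot be told apart, and the part of these marker levels in the results was not tested.

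Together the 9 genes took 0.0894%, 0.0919% and 0.0811% of all counts in the 3 shControl libraries, 0.0875% ± 0.00567 (SD, n = 3). In the shOpa1 libraries they took 0.149%, 0.153% and 0.141%, 0.148% ± 0.00639 (SD, n = 3). The groups did not overlap, and in both the library numbered 3 had the lowest share. The share taken by the genes of the mitochondrial chromosome, which code for subunits of the respiratory chain and for mitochondrial RNAs, was 3.19% to 5.31% in shControl and 1.59% to 2.38% in shOpa1.

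Among the chaperones, Hspa9 (ENSMUSG00000024359, GRCm38 chromosome 18, 34937414 to 34954357, minus strand) encodes the Hsp70 motor of import and folding. It stood at 267, 265 and 241 CPM in shControl, 258 ± 14.8 (SD, n = 3), and at 522, 525 and 511 CPM in shOpa1, 519 ± 7.52. Every shOpa1 library held about the same level, and the gap between the groups was far wider than the spread within either. The log2 fold change was 1.01 ± 0.0616 (SE), a 2.02-fold rise, with an edgeR adjusted p of 6.8e-05. By pair of equal replicate number the log2 differences were 0.97, 0.98 and 1.08. The 14 exon blocks of Hspa9 overlap no other annotated gene.

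Dnaja3 (ENSMUSG00000004069, GRCm38 chromosome 16, 4639989 to 4707695, plus strand) encodes a J-domain protein that delivers clients to the matrix Hsp70 and stimulates its ATPase. Its levels were 63.3, 61.9 and 64.1 CPM in shControl, 63.1 ± 1.11 (SD, n = 3), and 38.1, 37.7 and 37.4 CPM in shOpa1, 37.7 ± 0.355. The libraries of each group lay within a narrow band and the bands were far apart. Its log2 fold change was -0.74 ± 0.0570 (SE), a 1.67-fold drop, with an edgeR adjusted p of 0.000141, and the pairs gave -0.73, -0.71 and -0.77. Exons of Dnaja3 share 153 bases with Coro7 on the other strand and 160 bases with Vasn on the same strand, together 8.0% of its exon length. Neither neighbour was called, with log2 fold changes of 0.02 for Coro7 and -0.15 for Vasn.

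Dnaja3 is also the only 1 of the 9 genes whose 3' UTR carries the 7-base sequence GAAACTA. That sequence was picked earlier on these same fold changes, so its presence in a gene that fell is no independent evidence. It is shown for its place in the transcript: bases 29 to 35 of the 1141-base 3' UTR of Dnaja3-201, in exon 12 of 12, at chr16:4706583-4706589 on the plus strand (GENCODE M21, GRCm38). Of 13851 tested genes with a 3' UTR, 1334 carried it, or 9.63%. Dnaja3 also has the longest 3' UTR of the 9 genes, where the others hold 87 to 902 bases. The 30 bases at chr16:4706572-4706601 read as follows, with the 7 bases in capitals.
Dnaja3 3' UTR site: gcggtcaactgGAAACTAaatggagcagca

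Within each library the ratio of Hspa9 to Dnaja3 counts does not depend on how libraries are scaled to each other. It was 4.22, 4.29 and 3.75 in shControl, 4.09 ± 0.290 (SD, n = 3), and 13.7, 13.9 and 13.7 in shOpa1, 13.8 ± 0.139. Each shOpa1 library thus held more than 13 Hspa9 counts for every Dnaja3 count. The log2 difference was 1.75, with an exact two-sided permutation p of 0.1, the smallest that 3 libraries against 3 allow, and 0.14 after Benjamini-Hochberg adjustment over the 7 ratios examined. Against Grpel1, which encodes the nucleotide exchange factor that completes the Hsp70 cycle, Hspa9 counts went from 5.87 ± 0.150 to 8.76 ± 0.572, a log2 difference of 0.58 with the same exact p of 0.1. Against Hspa8, the constitutive Hsp70 of the cytosol, the ratio went from 0.222 ± 0.00551 to 0.427 ± 0.0207, a log2 difference of 0.94, again with an exact p of 0.1. In these 3 ratios every shOpa1 library lay above every shControl library.

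**Figure D2:**
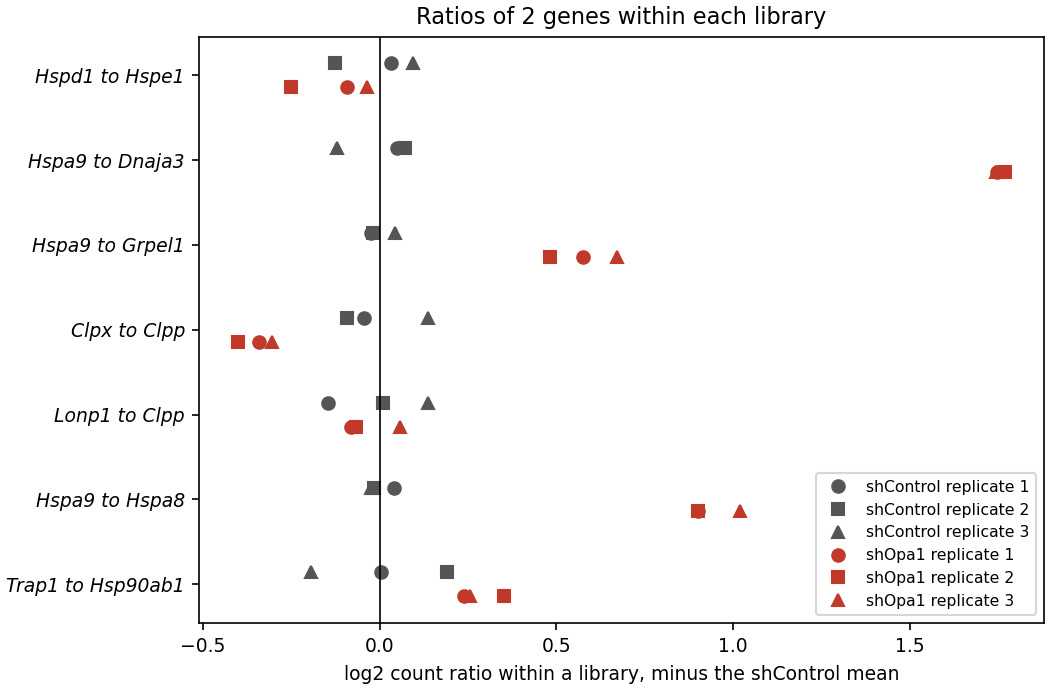
Log2 ratio of the counts of 2 genes within each of the 6 libraries, less the shControl mean of that ratio, for the 7 ratios examined, with shControl in grey, shOpa1 in red and a marker shape per replicate number. Hspa9 to Dnaja3 shows the widest gap, and the groups overlap for Hspd1 to Hspe1 and for Lonp1 to Clpp.

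The chaperonin genes lie head to head on chromosome 1 and share a promoter region. Hspd1 (ENSMUSG00000025980, GRCm38, 55077835 to 55088243, minus strand) encodes the barrel, and Hspe1 (ENSMUSG00000073676, 55088132 to 55091307, plus strand) encodes its lid. In the RefSeq promoter table (GRCm38.p6) the start sites are 55087932 for Hspd1 and 55088148 for Hspe1, 216 bases apart. The 215 bases between them are shown because both genes rose and these start sites flank this stretch. It holds motifs of factors that act in proteotoxic stress. The gene models used for counting differ: in them Hspd1 reaches 55088243, past the first base of Hspe1 at 55088132. The window is chr1:55087933-55088147, read on the plus strand from Hspd1 towards Hspe1. Capitals mark the CHOP core TGCAAT at bases 17 to 22 of the window and, at bases 127 to 144, a run of 4 alternating TTC and GAA units, the form of a heat shock element.
Hspd1-Hspe1 window: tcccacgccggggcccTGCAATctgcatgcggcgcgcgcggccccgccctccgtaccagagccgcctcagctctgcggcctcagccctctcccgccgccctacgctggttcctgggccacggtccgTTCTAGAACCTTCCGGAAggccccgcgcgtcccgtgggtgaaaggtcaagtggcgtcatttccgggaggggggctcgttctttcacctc

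Motifs were searched on both strands of the table's promoters, each covering 250 bases before to 50 after a start site. For 7 of the 9 genes the table holds promoters, 8 in all, and Hspa9 and Htra2 were not searched. TGCAAT was found in 8.4% of all 32851 promoters and in 2 of the 8, those of Hspd1 and Hspe1, at the same site. The heat shock forms GAANNTTC and TTCNNGAA were found in 7.86% and 8.52% of all promoters. GAANNTTC was in 2 of the 8 (Hspd1 and Hspe1) and TTCNNGAA in 3 of the 8 (Hspd1, Hspe1 and Clpp), and within the capitals shown the matches of both forms overlap. The Clpp match lies in its own promoter on chromosome 17. The uninterrupted run of 4 units that begins with TTC was in 5 of all promoters (0.0152%), belonging to Arpc2, Chordc1, Fam149a, Hspd1 and Hspe1. Hspd1 and Hspe1 hold it at the same site, and runs that begin with GAA were not searched. The form searched is that of the run shown above, so its low share is no independent evidence about these 2 genes. TGATGNAA, the C/EBP-ATF response element bound by Atf4 dimers, was found in 3.97% of all promoters and in 0 of the 8. A match is a string of letters and no measure of binding.

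Hspd1 stood at 263, 272 and 243 CPM in shControl, 259 ± 14.9 (SD, n = 3), and at 394, 409 and 356 CPM in shOpa1, 386 ± 27.3. Its lowest shOpa1 library lay well above its highest shControl library. On the log2 scale Hspd1 rose by 0.57 ± 0.0749 (SE), with an edgeR adjusted p of 0.001166. A processed copy listed as Hspd1-ps3 on chromosome 11 held 37, 44 and 50 counts in shControl and 72, 92 and 83 in shOpa1, 0.652% as many as Hspd1 itself over all libraries. It also rose, by 0.58 with an edgeR adjusted p of 0.0369, and reads of such a near-identical copy and of its parent cannot be assigned with certainty. Of 12 listed copies of the 9 genes, Hspd1-ps3 was the only 1 that passed the count filter.

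Hspe1 stood at 57.1, 66.1 and 50.6 CPM in shControl, 57.9 ± 7.78 (SD, n = 3), and at 93.5, 108 and 81.1 CPM in shOpa1, 94.2 ± 13.5. Relative to its level it varied more between replicates than Hspd1 did, yet the groups did not overlap. The log2 fold change was 0.70 ± 0.133 (SE), with an edgeR adjusted p of 0.00574. The libraries numbered 2 were the highest and those numbered 3 the lowest for both chaperonin genes in both groups. Compared by pair, the rise was nearly the same in each: 0.58, 0.58 and 0.55 for Hspd1 and 0.71, 0.70 and 0.67 for Hspe1. The ratio of Hspd1 to Hspe1 counts was 4.51 ± 0.351 in shControl and 4.13 ± 0.312 in shOpa1, and the groups overlapped (log2 difference -0.13, exact two-sided permutation p of 0.3, adjusted 0.35). The 2 gene models share 112 bases of exon on opposite strands, 4.24% of Hspd1 and 7.60% of Hspe1.

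Trap1 (ENSMUSG00000005981, GRCm38 chromosome 16, 4039971 to 4077827, minus strand) stood at 77.7, 84.7 and 65.9 CPM in shControl, 76.1 ± 9.53 (SD, n = 3), and at 93.3, 98.1 and 86.6 CPM in shOpa1, 92.7 ± 5.78. The groups came close without overlapping: the lowest shOpa1 library was only just above the highest shControl library. The log2 fold change was 0.28 ± 0.101 (SE), with an edgeR adjusted p of 0.0608. The pairs gave 0.26, 0.21 and 0.39, and with the replicate block the value was 0.29 with an edgeR adjusted p of 0.000608. Its ratio to Hsp90ab1, the constitutive cytosolic Hsp90 gene, was 0.0389 ± 0.00516 in shControl and 0.0470 ± 0.00200 in shOpa1, without overlap (log2 difference 0.28, exact p of 0.1). It shares 54 bases of exon, 2.10%, with Dnase1, which was not called (log2 fold change -0.08).

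Among the proteases, Lonp1 (ENSMUSG00000041168, GRCm38 chromosome 17, 56614297 to 56626887, minus strand) encodes the soluble AAA+ protease of the matrix. It stood at 96.0, 111 and 96.5 CPM in shControl, 101 ± 8.71 (SD, n = 3), and at 144, 155 and 158 CPM in shOpa1, 152 ± 7.52. All shOpa1 libraries were clearly above all shControl libraries. On the log2 scale Lonp1 rose by 0.59 ± 0.0787 (SE), with an edgeR adjusted p of 0.001289, and the pairs gave 0.58, 0.48 and 0.71.

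Clpp (ENSMUSG00000002660, GRCm38 chromosome 17, 56990305 to 56996188, plus strand) encodes the proteolytic chamber that Clpx feeds. It stood at 46.4, 48.4 and 38.4 CPM in shControl, 44.4 ± 5.30 (SD, n = 3), and at 66.5, 71.0 and 66.5 CPM in shOpa1, 68.0 ± 2.60. The shControl library numbered 3 was lower than the other 2, and the pair of that number showed the widest gap. Clpp rose by 0.62 ± 0.0959 (SE) on the log2 scale, with an edgeR adjusted p of 0.002458, and the pairs gave 0.51, 0.55 and 0.79. The ratio of Lonp1 to Clpp counts was 2.29 ± 0.224 in shControl and 2.24 ± 0.119 in shOpa1, with overlapping groups (log2 difference -0.03, exact two-sided permutation p of 0.7).

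Clpx (ENSMUSG00000015357, GRCm38 chromosome 9, 65294260 to 65330658, plus strand) encodes the AAA+ unfoldase that recognises substrates for Clpp. It stood at 22.5, 22.6 and 21.02 CPM in shControl, 22.0 ± 0.877 (SD, n = 3), and at 26.2, 26.8 and 26.9 CPM in shOpa1, 26.6 ± 0.387. The groups did not overlap, but the gap was small beside that of Clpp. The log2 fold change was 0.27 ± 0.0713 (SE), with an edgeR adjusted p of 0.0202, and the pairs gave 0.22, 0.24 and 0.35. This call was lost on leaving out any library other than the shOpa1 library numbered 3, with adjusted p-values from 0.0513 to 0.0730. The ratio of Clpx to Clpp counts was 0.50 ± 0.0425 in shControl and 0.392 ± 0.0133 in shOpa1, with every shOpa1 library below every shControl library (log2 difference -0.35, exact p of 0.1). Lonp1, Clpp and Clpx share no exon with another annotated gene.

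Htra2 (ENSMUSG00000068329, GRCm38 chromosome 6, 83051266 to 83055273, minus strand) was the gene whose groups overlapped. It stood at 32.0, 34.1 and 29.4 CPM in shControl, 31.8 ± 2.38 (SD, n = 3), and at 38.8, 43.4 and 34.0 CPM in shOpa1, 38.7 ± 4.69. The shOpa1 library numbered 3 lay just under the shControl library numbered 2, while each pair of equal number had the shOpa1 library higher. The log2 fold change was 0.28 ± 0.106 (SE), with an edgeR adjusted p of 0.0706. The pairs gave 0.28, 0.34 and 0.21, and with the replicate block the value was 0.28 with an edgeR adjusted p of 0.00152. Exons on the other strand cover 43.72% of Htra2, 753 bases from Aup1 and 535 bases from Loxl3, and the counting command names no strand option. Loxl3 was near silent, at 0.661 and 0.656 CPM, but Aup1 stood at 56.2 and 66.2 CPM with a log2 fold change of 0.24 and an edgeR adjusted p of 0.0682. With the replicate block Aup1, like Htra2, was called higher (edgeR adjusted p of 0.00846). Without the strand, reads of Htra2 and Aup1 cannot be told apart over that stretch. Whether such reads were counted for either gene was not examined.

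**Figure D3:**
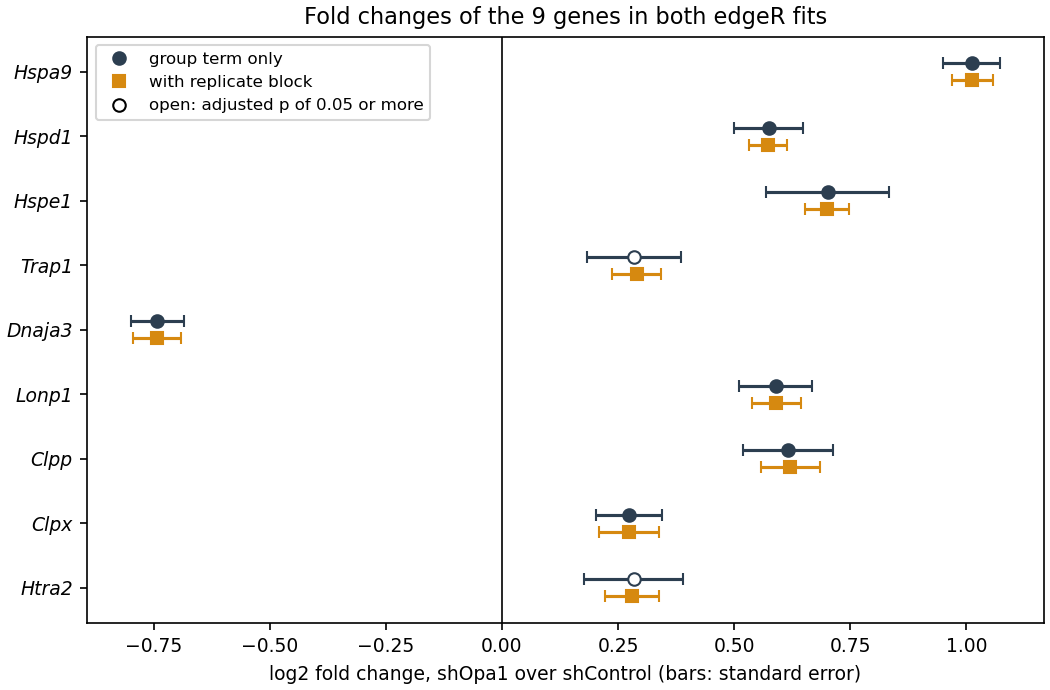
Log2 fold change of shOpa1 over shControl for each of the 9 genes in the edgeR fit with the group as the only term (dark circles) and in the fit with the replicate block (orange squares), with bars for the standard error and open symbols for an adjusted p of 0.05 or more. Hspa9 lies at 1.01, Hspe1, Clpp, Lonp1 and Hspd1 lie between 0.57 and 0.70, Clpx, Trap1 and Htra2 near 0.28, and Dnaja3 at -0.74, and only Trap1 and Htra2 are open, in the first fit.

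Levels of different genes were compared as CPM per kilobase of exon, using each gene model's exon length. In shControl the order was Hspd1 at 98.2 ± 5.64 (SD, n = 3), Hspa9 at 59.8 ± 3.42, Hspe1 at 39.3 ± 5.28, Clpp at 36.3 ± 4.33, Trap1 at 29.6 ± 3.70, Lonp1 at 23.2 ± 1.99, Dnaja3 at 16.1 ± 0.283, Htra2 at 10.8 ± 0.808 and Clpx at 6.31 ± 0.251. The libraries of Hspe1 and Clpp overlapped, as did those of Clpp and Trap1, and the other neighbours in this order did not. All 9 genes were above the median of the tested genes on this scale, from the 59.8th percentile for Clpx to the 97.6th for Hspd1. The barrel gene stood above the lid gene on this per-length scale, and the protease chamber gene Clpp far above its unfoldase Clpx. The exon length merges all annotated exons of a gene, 2642 bases for Hspd1 and 1474 for Hspe1. An expressed transcript can be shorter, and transcript lengths were not examined, so the order between genes holds only for these lengths.

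In shOpa1 the first places were the same, with Hspd1 at 146 ± 10.3 (SD, n = 3) and Hspa9 at 120 ± 1.75 CPM per kilobase. Hspa9 thus came closer to Hspd1, although their libraries still did not overlap. Dnaja3, at 9.55 to 9.73, dropped below Htra2, at 11.54 to 14.7, and stood only above Clpx, at 7.49 to 7.69. Exons of other genes cover 43.72% of the Htra2 length used here, and how reads there were counted was not examined. The place of Htra2 in either order is therefore uncertain. Trap1 and Lonp1 overlapped in shOpa1, at 33.7 to 38.1 and 32.9 to 36.2 CPM per kilobase.

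**Figure D4:**
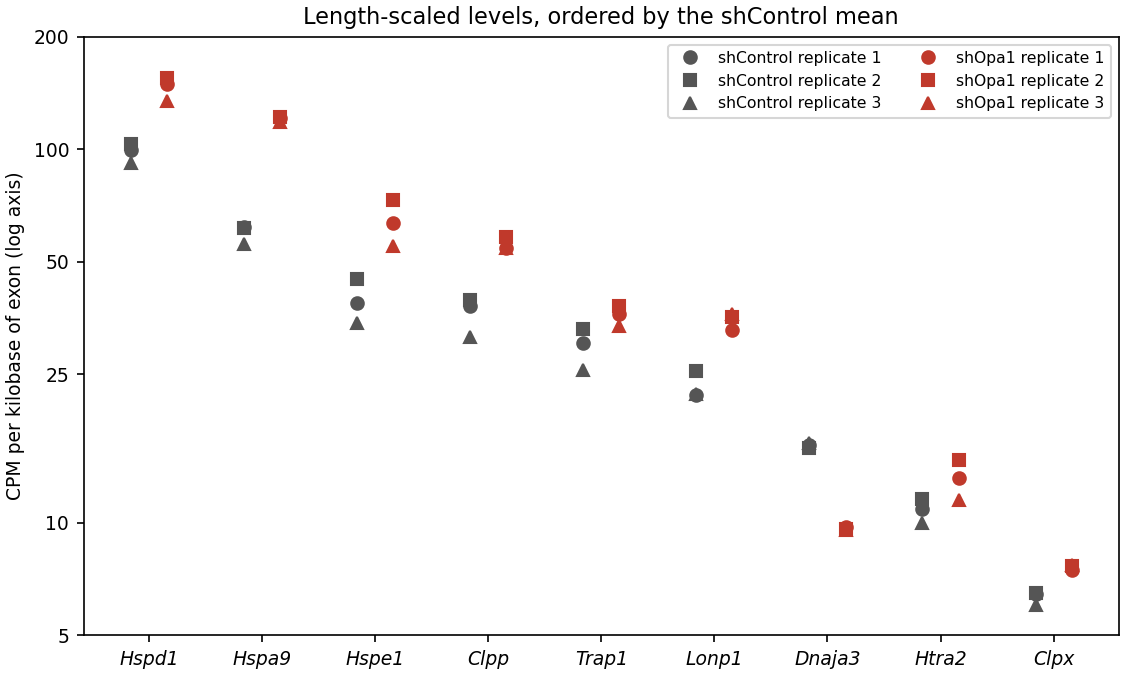
CPM per kilobase of exon (log axis) of the 9 genes in each library, ordered by the shControl mean, with shControl in grey, shOpa1 in red and a marker shape per replicate number. Hspd1 leads in both groups, and Dnaja3 is the only 1 of the 9 whose shOpa1 libraries lie below its shControl libraries.

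The genes listed here as partners of the matrix chaperones, not all of them matrix proteins, were mostly higher as well. Of 11 such partners, 7 rose, 0 fell and 4 did not pass, beside 18.9% of all tested genes called higher and 20.0% lower. This list and those that follow were chosen with earlier results of these data known. A count above the share of all tested genes can therefore come from the choice of genes. Their median log2 fold change was 0.41. Both nucleotide exchange factors of the matrix Hsp70 rose, Grpel1 by 0.44 ± 0.0898 (SE) and Grpel2 by 0.49, from 34.6 to 48.5 CPM. Hscb, a J-domain protein of iron-sulfur cluster assembly, rose by 0.98 from a low level of 2.65 to 5.24 CPM. Timm44, which anchors the Hsp70 at the import channel, rose by 0.41 and Dnajc15, a J-domain protein of the import motor, by 0.48. Ppif, the matrix cyclophilin, rose by 0.48, and Dnajc30 by 0.35. Clpb, a disaggregase of the intermembrane space, stood at 0.00 with an edgeR adjusted p of 0.994, and Dnajc28 at -0.49 with 0.0666. With the replicate block Dnajc28 was called lower, so that 7 partners were higher and 1 lower, where the block called 28.8% of all tested genes higher and 30.7% lower. Dnaja3 was thus the only J-domain gene among the members and partners called lower without the block.

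Of 14 other mitochondrial proteases, 4 rose, 4 fell and 6 did not pass, beside 18.9% and 20.0% of all tested genes called higher and lower. Their median log2 fold change was -0.02, against -0.01 over all tested genes. Yme1l1, an inner-membrane AAA protease that also cleaves the Opa1 protein, fell by 0.50 from 88.5 to 62.6 CPM. Xpnpep3, an aminopeptidase, fell by 0.66, Spg7, a subunit of the matrix-facing AAA protease of the inner membrane, by 0.26, and Pmpca, a subunit of the presequence peptidase, by 0.22. Afg3l2, the partner of Spg7 in that inner-membrane protease, rose by 0.46 from 93.1 to 128 CPM. Pitrm1, which degrades cleaved presequences, rose by 0.55, the rhomboid protease Parl by 0.54 and Lactb by 0.45. The stress-activated protease Oma1, which also cleaves the Opa1 protein, stood at 3.56 and 3.35 CPM and did not pass the test (edgeR adjusted p of 0.744).

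Of 11 genes known as regulators of the mitochondrial unfolded protein response, 6 rose, 0 fell and 5 did not pass, where 18.9% of all tested genes were called higher and 20.0% lower. The median log2 fold change of the list was 0.39. Ddit3 rose by 1.602 from 26.6 to 80.7 CPM, Atf5 by 1.32 from 73.7 to 184 CPM, and Atf4 by 0.93 from 327 to 625 CPM. The Ddit3 values are those of the longer of 2 entries of that name. These entries share 105 bases of exon, counted in the overlap given for Ddit3 below. Cebpb, a partner of CHOP in dimers, rose by 1.72 from a low 1.33 to 4.40 CPM. Hsf1, the heat shock transcription factor, rose by 0.39, and Sirt3, a matrix deacetylase, by 0.41. The kinase gene Eif2ak1 stood at -0.11 and Dele1, which relays mitochondrial stress to it, at -0.13, and neither passed the test. Under the block 2 of the list were called lower, Ubl5 at -0.18 and Dele1 at -0.13, beside 30.7% of all tested genes.

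The same test was read for counterparts of these chaperones and proteases outside mitochondria. Of 21 cytosolic, endoplasmic reticulum and peroxisomal genes, 7 rose, 2 fell and 12 did not pass. Of all tested genes 38.9% were called, 18.9% higher and 20.0% lower. The median log2 fold change was 0.13. Blocking on the replicate number gave 12 higher and 3 lower, where 59.5% of all tested genes were called, 28.8% higher and 30.7% lower. The stress-inducible cytosolic Hsp70 genes fell from low levels, Hspa1a by 0.96 from 3.69 to 1.89 CPM and Hspa1b by 0.70 from 9.57 to 5.90 CPM; these are near-identical copies between which reads are hard to assign. Hspa8 stood at 0.07 (edgeR adjusted p of 0.447), Hsp90ab1 at 0.01 (0.922) and Lonp2, the peroxisomal Lon protease, at -0.23 (0.143, and called lower with the replicate block at 0.00175). Hspa5, the Hsp70 of the endoplasmic reticulum, rose by 0.53, and the cytosolic chaperonin subunits Cct7, Cct2 and Tcp1 rose by 0.30, 0.31 and 0.22. Exons of other genes overlap more than 10% of the exon length of 12 genes named from these 4 lists: 54.5% of Ubl5 (Fbxl12, on the other strand), 26.3% of Dnajc30, 20.7% of Cebpb, 20.4% of Pmpca, 19.0% of Hspa1a, 18.3% of Ppif, 16.9% of Tcp1, 15.6% of Pitrm1, 12.7% of Sirt3, 11.7% of Grpel1, 11.6% of Eif2ak1 and 10.9% of Ddit3.

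**Figure D5:**
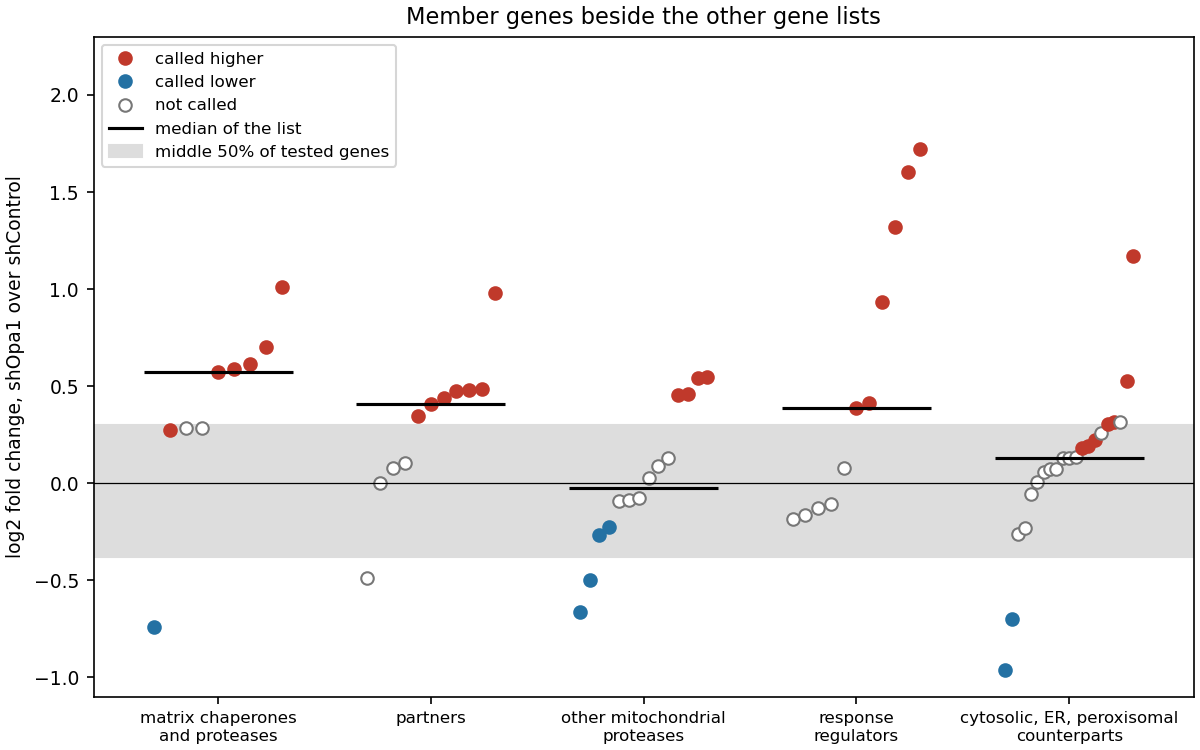
Log2 fold change of shOpa1 over shControl for every gene of the 5 lists, with genes called higher in red, called lower in blue and not called as open circles, a bar at each list's median, and a grey band over the middle 50% of tested genes. The medians are 0.57 for the 9 genes, 0.41 for the partners, -0.02 for the other proteases, 0.39 for the regulators and 0.13 for the counterparts. The lists were chosen with earlier results of these data known.

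In the authors' deposited table, made with DESeq2, all 9 genes were called. The authors' deposited table gave log2 fold changes of 1.02 for Hspa9, 0.58 for Hspd1, 0.71 for Hspe1, 0.60 for Lonp1, 0.63 for Clpp, 0.28 for Clpx and -0.73 for Dnaja3. For the 2 genes not called here without the block, the authors' deposited table gave 0.30 for Trap1 (adjusted p of 0.000135) and 0.29 for Htra2 (adjusted p of 0.00422). The fold changes were therefore nearly the same, and the calls on Trap1 and Htra2 differed. The deposited fold changes match a DESeq2 fit with replicate 3 as a second batch, a term the chosen fit lacks. With that batch edgeR also called Trap1 (edgeR adjusted p of 0.00143) and Htra2 (0.00337). Without it DESeq2 called Trap1 (DESeq2 adjusted p of 0.0406) but not Htra2 (0.0634).

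For each of the 9 genes the tested gene with the most similar log2 CPM over the 6 libraries was named, as a description. The closest were Shmt2 for Hspa9, Psme4 for Hspd1, Slamf9 for Hspe1, Gm2011 for Trap1, Cox19 for Dnaja3, Rpl5 for Lonp1, Slx1b for Clpp, Cdc34 for Clpx and Timm8a1 for Htra2. Pearson's r was lowest for Htra2, at 0.994, and ran from 0.999 to 1.000 for the others. Over 6 libraries in 2 groups a high r is common among genes that differ between the groups in the same direction, and 205 to 1530 genes exceeded 0.95 for each of the 9.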

How the data were processed

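The authors deposited raw read counts per gene, counted by featureCounts 1.6.0 over paired reads and Ensembl 99 gene models (GRCm38), per the file headers, which give no strand option. Libraries came from a stranded polyA kit, per the labels' protocols. HISAT2 and DESeq2 are named without versions, per the submitters' processing notes. The authors' deposited comparison holds a log2 fold change and its error, a p-value, a score (fold change over error) and size-factor-scaled counts, a normalised signal that was not used.

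Groups and replicate numbers came from the labels. The genes of interest and the lists were chosen with earlier results of these data known. Named genes are the 9 members, Opa1, up to 6 called genes of a list by smallest p, genes in a ratio, listed copies and the most similar gene of each member. Dnajc15, Clpb, Dnajc28, Spg7, Pmpca, Oma1, Eif2ak1, Dele1, Ubl5, Lonp2 and the exon-sharing neighbours were named after their values were seen. Counts were tested with edgeR 4.0.16 (R 4.3.3): TMM, filterByExpr, robust quasi-likelihood, group as the only term, Benjamini-Hochberg at 0.05 over 16562 genes. SE is the log2 fold change over the square root of F. CPM uses TMM-scaled totals, and pair differences and ratios an offset of 0.5. Libraries of 1 group differed beyond sampling noise (chi-square per degree of freedom 6.69 to 34.1).

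Deviations from group means correlated at 0.595, 0.608 and 0.714 between libraries of equal replicate number and at -0.532 to 0.154 otherwise. Libraries of equal number were therefore taken as pairs for the pair differences and for the replicate block. The chosen edgeR fit has no term for these pairs, and whether Trap1 and Htra2 were called depends on that choice. A DESeq2 1.42.0 fit with replicate 3 as a second batch gave the authors' fold changes to within 1e-05, with 0 exceptions. On data simulated for this comparison over 16562 genes, 200 genes were given a 2-fold change, of which edgeR recovered 125, beside 13 false calls, and with the block 123, beside 22. The simulated libraries were drawn independently, with no effect of replicate number and far fewer changed genes than were called here. They therefore cannot rank the fit with the block against the fit without it. Alternatives were other scalings, DESeq2, limma-voom 3.58.1, no filter, the replicate block, replicate 3 as a batch, replicates 1 and 2 alone, and leaving out each library. Python 3.11.15 with scipy 1.17.1 was used. Promoters came from a RefSeq table and 3' UTRs from GENCODE M21. Gene names matched 55144 of 55471 identifiers.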

Additional observations from a re-analysis of the deposited data

How the results depend on the processing

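Hspa9, Hspd1, Hspe1, Lonp1, Clpp and Dnaja3 held their direction and their call in all 17 alternatives. The calls of all tested genes moved with the replicate block to 9851, of which 4770 were higher and 5081 lower. The median log2 fold change of all tested genes was 0.11 with library totals only, against -0.01 with TMM. Trap1, not called by edgeR in the chosen fit, passed at 0.33 with upper-quartile scaling, 0.41 with library totals only, 0.295 with DESeq2, 0.289 with no low-count filter, 0.290 with the replicate block, 0.289 with replicate 3 as a second batch, 0.299 with DESeq2 and that batch, and 0.243 on replicates 1 and 2 alone. Htra2 passed at 0.328, 0.407, 0.288, 0.280, 0.280, 0.290 and 0.320 in the same order, DESeq2 without the batch aside. Clpx lost its call without a low-count filter, at 0.277 (edgeR adjusted p of 0.0598). Leaving out 1 library at a time gave 0.190 to 0.365 for Trap1, 0.197 to 0.368 for Htra2 and 0.239 to 0.287 for Clpx. Trap1 passed without the shControl library numbered 2 (0.365) or the shOpa1 library numbered 3 (0.330), and Htra2 without the latter (0.368). The log2 ratio of Lonp1 to Clpp ran from -0.104 to 0.0376, above 0 without the shControl library numbered 3. Apart from what the alternatives themselves change, the cause was not tested. Members called numbered 6 to 9 of 9 over all alternatives, counterparts called higher 3 to 12 of 21, and other proteases called lower 2 to 4 of 14. The 6 libraries allow no exact p under 0.1 for a ratio, or under 0.25 over pairs in the replicate block, so no ratio could pass.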
